A study of Mus musculus with 6 samples.

Results

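Mature medullary thymic epithelial cells (mTEChi) with an intact Trp53 gene were profiled by mRNA sequencing in 3 of the 6 libraries of a study of the p53 transcription factor in the mouse thymus. The 3 were taken by their label, which names mice without Cre and a wild-type p53 genotype, and are named WT libraries 1, 2 and 3 here. The thymi came from mice aged 4 to 5 weeks, EpCAM-positive cells were enriched on magnetic beads, and 75000 medullary cells per library were sorted straight into lysis buffer before poly(A) selection and paired-end sequencing. The sources used here do not say which surface proteins set the mTEChi gate, whether the mice carried loxP sites in Trp53, or whether the libraries stand for different animals, and the spread given below may thus be partly technical. Levels are in TPM, transcript abundance on a scale that divides counts by gene length and has the same sum in every library. Values are means ± SD of n = 3 libraries unless a library is named, and no test was made, since the libraries form 1 group.

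The medulla of the thymus shows developing T cells the proteins of the rest of the body, so that cells that recognise them too strongly are deleted or become regulatory T cells. Its mature epithelial cells do this by transcribing genes that otherwise belong to single tissues, under the regulator AIRE and, for another set of genes, the transcription factor FEZF2. They present the products on class I and class II major histocompatibility complex (MHC) molecules. Some of these cells go on to resemble peripheral cell types such as tuft, microfold, muscle or ciliated cells, and are known as mimetic cells.

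Genes of antigen presentation led the protein-coding transcriptome of these cells. Cd74, which encodes the invariant chain that escorts class II molecules, had the highest level of the 20717 protein-coding genes in the deposited TPM table, at 21855, 23148 and 23241 TPM in libraries 1, 2 and 3 (22748 ± 775). B2m, the light chain of class I, was next at 15696, 17977 and 16405 TPM, and then Ubd, a ubiquitin-like modifier, at 7621 ± 872 TPM. The class II chains H2-Ab1 (5471 ± 469 TPM), H2-Aa (5185 ± 224) and H2-Eb1 (5072 ± 321) took the ranks after it, in the same order in each library, although their ranges over the libraries overlapped. All 20 measured genes of the class II list were at 1 TPM or more, against 81.0% of all protein-coding genes, and their median level was 248 TPM, against 7.06 TPM for all protein-coding genes. The peptide-loading chain H2-DMb2 was at 961 ± 27.3 TPM, its inhibitor H2-Oa at 716 ± 60.9 TPM and the thiol reductase Ifi30, which unfolds antigens, at 704 ± 90.4 TPM. At the low end, the ubiquitin ligase March1, which removes class II from the surface of dendritic cells, was at 1.55 ± 0.49 TPM. The class II list thus spanned a wide range of levels, with 13 of its 20 genes at 100 TPM or more.

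The class I list was almost as high, with all 25 measured genes at 1 TPM or more and a median of 183 TPM. H2-K1 (3257 ± 70.5 TPM) and H2-D1 (2184 ± 70.4 TPM) encode the classical heavy chains, and Calr (1674 ± 161 TPM) is a chaperone of the peptide-loading complex. Because 31.7% of the 25-base words of H2-K1 and 36.3% of those of H2-D1 also occur in transcripts of another gene, the division of reads among the heavy chains is uncertain. Psme2, a subunit of the proteasome activator, was listed at 23, 17.7 and 51.3 TPM in libraries 1, 2 and 3, high in library 3, and had the highest coefficient of variation (CV, SD over mean) of the class I list at 58.9%. Its near copy Psme2b, with which it shares 35.4% of its words, was listed at 1208 ± 103 TPM, so the level of Psme2 itself is uncertain.

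The sequence just upstream of class II genes is a known regulatory module, in which an X box and a Y box are bound together with the coactivator CIITA. Ciita, which encodes it, was at 101, 88.3 and 92.6 TPM in the 3 libraries, with a mean of 93.9 ± 6.39 TPM. The 150 bases before the transcription start of 4 class II genes are shown here because these 4, abundant and less abundant, carry the same pair of short sequences. They are taken from RefSeq on build GRCm38.p6, read 5′ to 3′ on the gene's strand. Capitals mark GCAAC, the core of the X box, and GATTGG, the core of the Y box, which is an inverted CCAAT.
H2-Aa, chr17:34287824-34287973, minus strand, 5185 TPM: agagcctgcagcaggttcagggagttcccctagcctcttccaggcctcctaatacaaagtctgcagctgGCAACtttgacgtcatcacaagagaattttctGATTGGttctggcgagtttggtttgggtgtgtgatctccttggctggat
H2-Eb1, chr17:34305717-34305866, plus strand, 5072 TPM: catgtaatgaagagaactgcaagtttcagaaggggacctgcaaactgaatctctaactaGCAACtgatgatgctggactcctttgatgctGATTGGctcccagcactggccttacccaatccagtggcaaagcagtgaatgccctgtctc
H2-Oa, chr17:34092229-34092378, plus strand, 716 TPM: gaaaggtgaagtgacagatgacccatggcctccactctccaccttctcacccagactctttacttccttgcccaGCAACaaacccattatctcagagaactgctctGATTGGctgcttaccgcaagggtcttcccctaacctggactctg
H2-Ob, chr17:34238755-34238904, plus strand, 58.4 TPM: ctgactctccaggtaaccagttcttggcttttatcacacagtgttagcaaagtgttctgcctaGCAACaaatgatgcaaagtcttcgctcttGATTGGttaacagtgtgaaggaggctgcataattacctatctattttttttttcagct

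The bases between the 2 cores numbered 27 in H2-Aa, 26 in H2-Eb1, 27 in H2-Oa and 24 in H2-Ob. In the 250 bases upstream of 15802 protein-coding genes with a promoter in the RefSeq table, GCAAC was found on either strand in 30.6%, and GATTGG in 18.1%. GCAAC followed on the same strand by GATTGG after 15 to 40 bases, a window set after these 4 sequences had been seen, was found in 84 promoters (0.532%). The 4 of those 84 genes with the highest levels were the class II genes H2-Aa, H2-Eb1, H2-Eb2 (790 ± 31.6 TPM) and H2-Oa. H2-Aa, H2-Eb1, H2-Oa and H2-Ob were among the 84 by construction, since the window was set on them. H2-Eb2 was not used to set it. Of the 12 class II list genes with a promoter in the table, only the 4 shown above had the pair, and their match was fixed by the choice of window. None of the 21 class I genes had the pair, although 10 held GATTGG on either strand. Because the window was fitted to class II genes, these counts make no contrast between the 2 classes. A match of letters is a description of the sequence and does not show binding.

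Promoters of the light chain gene B2m and of Aire itself also hold GATTGG, marked here in capitals in the 150 bases before the start.
B2m, chr2:122147537-122147686, plus strand, 16693 TPM: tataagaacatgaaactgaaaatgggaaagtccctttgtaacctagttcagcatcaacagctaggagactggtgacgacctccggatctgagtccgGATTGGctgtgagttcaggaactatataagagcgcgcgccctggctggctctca
Aire, chr10:78043611-78043760, minus strand, 771 TPM: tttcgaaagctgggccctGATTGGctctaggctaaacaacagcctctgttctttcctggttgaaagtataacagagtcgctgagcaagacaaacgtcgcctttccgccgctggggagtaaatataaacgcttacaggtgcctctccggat

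The 5 genes given as marks of the sorted population were all present at levels far above the protein-coding median. Aire (chr10:78030022-78043610) was at 861, 748 and 704 TPM in libraries 1, 2 and 3, which placed it 59th among protein-coding genes by mean level (771 ± 81.1 TPM). Its level was highest in library 1. Fezf2 (chr14:12342094-12348189) was at 382, 310 and 316 TPM, also highest in library 1, with rank 174 by its mean of 336 ± 39.9 TPM. Epcam (chr17:87635979-87651129), the epithelial adhesion protein used for enrichment, had rank 102 at 510.4 ± 37.4 TPM. Cd80 (chr16:38455561-38496335), a ligand of CD28 on T cells, was at 133, 163 and 149 TPM, lowest in library 1, with rank 530 by its mean. H2-Aa (chr17:34282744-34287823) had rank 5. Every gene of the 27 on the mature mTEC list was at 1 TPM or more, with a median of 198 TPM, and 22 were at 100 TPM or more. Its members Ccl21a, Krt5 and Krt14 are also on the list of immature and junctional medullary cells, so they do not mark the mature state alone. The plot of rank against level places these genes on the whole curve.

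**Figure D1:**
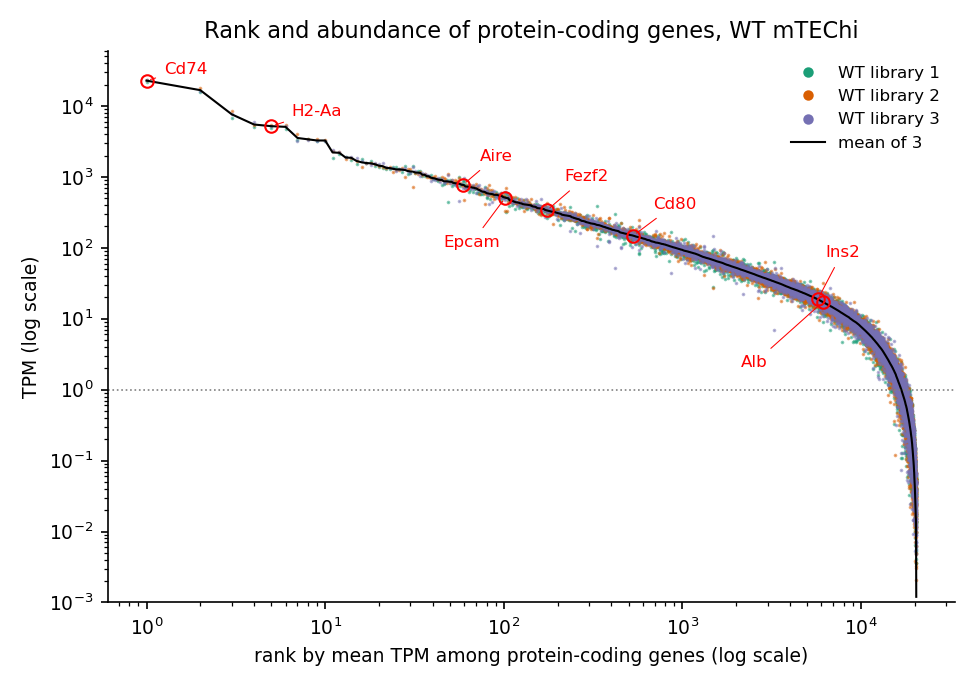
TPM of each protein-coding gene in WT libraries 1 to 3 (coloured points; values of 0 are not drawn) and their mean (black line) against the gene's rank by mean TPM, both on log axes, with 8 genes ringed in red and 1 TPM dotted. Cd74 and H2-Aa stand at ranks 1 and 5, Aire, Epcam, Fezf2 and Cd80 at ranks 59, 102, 174 and 530, and the tissue genes Ins2 and Alb at ranks 5719 and 6099, still above 10 TPM.

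Transcription in these cells was broad. At a mean of 1 TPM or more there were 16787 of the 20717 protein-coding genes in the TPM table (81.0%), with 16751, 16724 and 16796 in libraries 1, 2 and 3, and at 0.1 TPM or more there were 19620 (94.7%). A protein-coding gene near 1 TPM (0.9 to 1.1) had a median of 62 counts per library, so the 1 TPM line lies well above the counting limit. Of the 20717, 366 (1.77%) had no count in any of the 3 libraries, while 19192 had at least 3 counts in each. The table leaves out 1180 other protein-coding genes of the count files, most of them olfactory receptors. Over all 21897 protein-coding genes, 651 (2.97%) had no count in any library, and 16626 (75.9%) reached 1 TPM when TPM was recomputed from the counts. Shares of protein-coding genes below are of the 20717 in the table. Over all 51810 genes of the TPM table, 23780 reached 1 TPM. Protein-coding genes at 1 TPM or more made up 74.4% to 88.3% of those on each autosome, 60.1% on the X chromosome and 4.57% on the Y chromosome. Libraries 1 to 3 all expressed the Y-linked genes Ddx3y (27.9 ± 1.75 TPM) and Eif2s3y (33.8 ± 2.5 TPM), and Xist was at 0.527 ± 0.159 TPM.

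Large families of genes with narrow use elsewhere differed in the share of members at 1 TPM or more, some above and some below the 81.0% of all protein-coding genes. Of 53 keratins, 50 were at 1 TPM or more, led by Krt17 (1604 ± 208 TPM), Krt18 (1299 ± 128) and Krt8 (1150 ± 45.9). All 26 kallikrein proteases, all 35 late cornified envelope and Sprr genes of the skin barrier and all 14 crystallins of the lens family reached 1 TPM. Among 70 defensins, 44 did (62.9%), led by Defb6 at 163 ± 15.9 TPM. The cytochrome P450 family had 68 of 99 at 1 TPM or more (68.7%), and its leader Cyp2a5 (570.5 ± 111 TPM) shares 60.5% of its words with other transcripts. Near-identical copies also limit the major urinary proteins, where 20 of 22 passed and the median gene shared 88.4% of its words.

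Chemosensory receptors were far less often detected. Olfactory receptors, the largest gene family in the mouse, are absent from the TPM table used here, so their TPM was recomputed from the counts: 30 of 1135 (2.64%) reached 1 TPM, 281 (24.8%) had at least 3 counts in every library, and 269 had none in any. The highest were Olfr77 at 10.1 ± 0.512 TPM and Olfr1136 at 10.05 ± 1.55 TPM. Of 350 vomeronasal receptors, 4 reached 1 TPM and 77 had at least 3 counts in every library. Taste receptors stood between, with 9 of 38 at 1 TPM or more. Tas1r3, a shared subunit of the sweet and umami receptors, was highest of them at 6.12 ± 1.27 TPM. Hair keratin-associated proteins were also low, with 8 of 57 at 1 TPM or more.

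Tissue antigens from 8 lists gave 223 different genes, of which 187 were at 1 TPM or more, 107 at 10 TPM or more and 22 at 100 TPM or more, with a median of 9.14 TPM. These shares, 83.9%, 48.0% and 9.87%, stood beside 81.0%, 42.1% and 4.39% of all protein-coding genes, whose median was 7.06 TPM. Among 40 genes known from other work to depend on AIRE, 39 reached 1 TPM. Reg3g, an intestinal antimicrobial lectin, was at 795, 974 and 831 TPM, above Aire in libraries 2 and 3. S100a8, a granulocyte calcium-binding protein, was at 347, 513 and 480 TPM, and Csn2, the milk protein beta-casein, at 359, 413 and 441 TPM. Library 1 was the lowest for each of these 3 genes. The gut peptide genes Tff3 (203 ± 17.7 TPM) and Gip (120 ± 29.0 TPM) and the salivary gene Mucl2 (116 ± 20.6 TPM) followed. All 19 genes of the FEZF2-dependent list reached 1 TPM, led by Csn2, the adaptor Grap (259 ± 16.4 TPM) and the testis fatty-acid-binding protein Fabp9 (239 ± 32.2 TPM).

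Peptide hormones were a rich group, with 28 of 31 at 1 TPM or more and a median of 22.5 TPM. Calcb, a calcitonin gene-related peptide, was at 600, 689 and 740 TPM in libraries 1, 2 and 3. Neurotensin (Nts, 150.5 ± 25.2 TPM), calcitonin (Calca, 124 ± 18), the incretin Gip, peptide YY (Pyy, 119 ± 50.04) and the ACTH precursor Pomc (115 ± 39.3) came next. Pyy was at 76.3, 106 and 174 TPM in libraries 1, 2 and 3, lowest in library 1 and highest in library 3. Insulin, the diabetes antigen, came mostly from Ins2 at 18.8 ± 2.68 TPM, with Ins1 at 1.33 ± 0.40 TPM. The pituitary hormones Tshb, Fshb and Prl were under 1 TPM.

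Antigens of the liver and the digestive glands had medians of 14.0 and 8.10 TPM, with 29 of 31 and 28 of 31 at 1 TPM or more. The apolipoprotein Apoa4 (589 ± 89 TPM) led the hepatocyte list, though 69.8% of its exon length overlaps another gene, followed by the iron hormone Hamp at 303 ± 99.4 TPM and Apoa1 at 204 ± 32.8 TPM. Albumin (Alb) was at 13.1, 18.1 and 20.5 TPM. Pgc, the stomach protease precursor, was at 231 ± 48.1 TPM. Brain antigens had 29 of 36 genes at 1 TPM or more, with a median of 7.34 TPM. Cnp, an enzyme of myelin that is also found outside the brain, was at 225 ± 13.9 TPM, and myelin basic protein (Mbp) at 37.5 ± 0.51 TPM, while the myelin antigen Mog had 10, 10 and 18 counts and 0.351 ± 0.116 TPM. Antigens of the eye and of germ cells were the lowest lists, with medians of 1.59 and 1.85 TPM and 18 of 30 and 21 of 30 at 1 TPM or more. Lens Cryab (60.02 ± 3.50 TPM) and Cryaa (46.4 ± 7.70 TPM) led the former and the egg-coat gene Zp2 (23.9 ± 5.33 TPM) the latter. Magea4 had no count and Tsga8 under 3 counts in each library. The plot of list members sets these groups side by side.

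**Figure D2:**
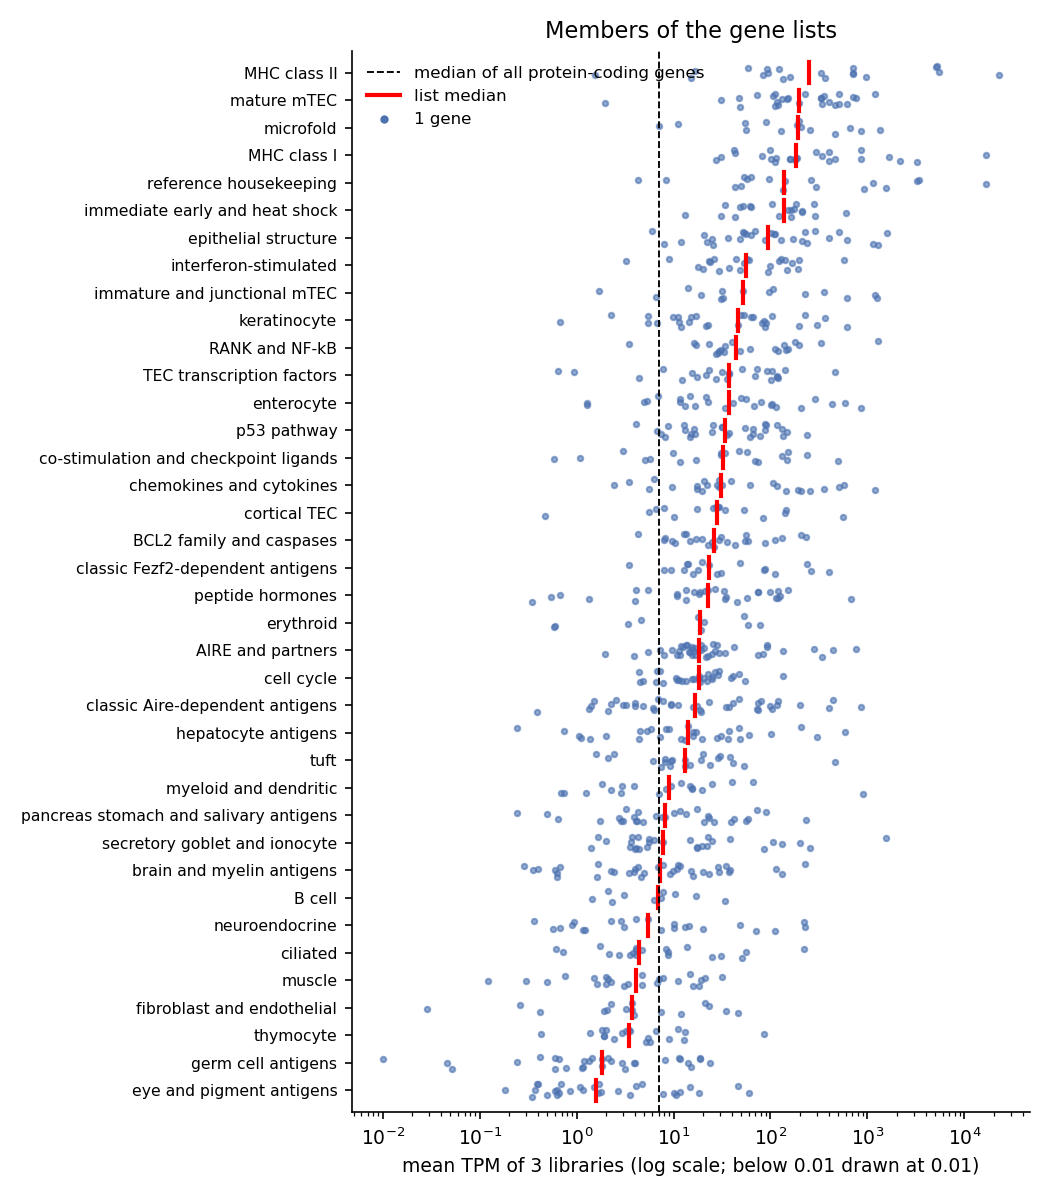
Mean TPM over the 3 WT libraries (log axis) of every measured member of the 38 gene lists, 1 point per gene, with the list median in red and the median of all protein-coding genes (7.06 TPM) as a dashed line. Lists of antigen presentation, mature mTEC and microfold genes lie at the top, with medians from 183 to 248 TPM, and the eye and germ cell antigens at the bottom, with medians under 2 TPM.

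Promoters of the tissue antigens differed in base composition from those of other genes at like levels. Over the 250 bases upstream, the 64 tissue antigens at 10 to 100 TPM with a promoter in the table had a median of 4 CpG dinucleotides, against 16 for 6010 genes at that level outside the tissue antigen and mimetic cell lists. TATAAA was found on either strand in 21 of those 64 (32.8%), against 7.27% of the 6010 and 10.5% of all 15802 promoters. Peptide hormones held it in 15 of 28. In the AIRE and partners list, which holds broadly used nuclear proteins, it was found in 1 of 37, with a median of 22 CpG. Such a composition is textbook knowledge for genes of narrow tissue use, and the lists were chosen for that use, so the difference describes the lists and was not tested. The 2 tissue antigens with the highest levels that hold TATAAA within 60 bases of the start are shown with that motif in capitals.
Reg3g, chr6:78468875-78469024, minus strand, 867 TPM: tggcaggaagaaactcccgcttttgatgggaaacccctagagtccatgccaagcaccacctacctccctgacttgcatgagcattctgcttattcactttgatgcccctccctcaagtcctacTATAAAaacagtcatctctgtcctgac
S100a8, chr3:90668921-90669070, plus strand, 447 TPM: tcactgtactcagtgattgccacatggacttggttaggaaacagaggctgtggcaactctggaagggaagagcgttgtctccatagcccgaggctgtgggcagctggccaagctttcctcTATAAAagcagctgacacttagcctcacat

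Regulators of tissue antigen expression were measured throughout. All 42 genes of the AIRE and partners list reached 1 TPM, with a median of 18.5 TPM, led after Aire by the RNA helicase Ddx5 (437 ± 56.5 TPM), Fezf2, the deacetylase Sirt1 (280.0 ± 25.9 TPM) and the helicase Ddx17 (134 ± 29 TPM). Prdm1, a repressor reported in other thymic work, was lowest of the list at 1.96 ± 0.23 TPM. Among TEC transcription factors, the ETS factor Spib was highest (465 ± 14.0 TPM), followed by Foxn1, the master regulator of thymic epithelium (140 ± 14.4 TPM), and Relb (119 ± 4.79 TPM) of the alternative NF-kB pathway. Tnfrsf11a, the receptor RANK whose signal matures these cells, was at 111 ± 6.76 TPM, and its decoy receptor Tnfrsf11b at 198 ± 21.2 TPM. All 22 genes of the RANK and NF-kB list reached 1 TPM, led by the inhibitor Nfkbia at 1275 ± 73.4 TPM.

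Signals to T cells and dendritic cells were abundant. The list of chemokines and cytokines had all 26 members at 1 TPM or more, and of the whole chemokine family 34 of 35 were. The list was led by Ccl21a (1186 ± 409 TPM), which draws CCR7-bearing thymocytes into the medulla. Ccl21a was at 1446, 714 and 1398 TPM and lowest in library 2, and its near-identical copies share 83.6% of its words, so the counts cannot be assigned to 1 copy. Ccl22, a ligand of CCR4, was at 320, 688 and 506 TPM, lowest in library 1 and highest in library 2. On the same list, Cxcl10 was at 568 ± 39.99 TPM, Ccl19 at 359 ± 39.5, Ccl20 at 255 ± 35.4 and Ccl5 at 208 ± 49.9 TPM. Of the co-stimulatory and checkpoint ligands, 19 of 20 reached 1 TPM, led by Icam1 (501 ± 20.9 TPM), Icosl (239 ± 11.4) and Cd40 (152 ± 28.7), and Fasl did not at 0.581 ± 0.385 TPM. Cytokine genes better known from lymphocytes and myeloid cells were present too, with 31 of 33 interleukin genes at 1 TPM or more. Il13 was at 197, 265 and 248 TPM and Il23a at 121, 145 and 153 TPM, both lowest in library 1.

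Genes of mimetic cells were present in every list examined, with 173 of 185 (93.5%) at 1 TPM or more, against 81.0% of all protein-coding genes. The neuroendocrine and muscle lists, given below, had shares near that of all protein-coding genes. In the microfold list, all 14 reached 1 TPM, with a median of 193 TPM. Gp2, the bacterial uptake receptor of microfold cells, was at 178, 263 and 122 TPM, highest in library 2, and had the highest CV of that list. In the enterocyte list all 26 reached 1 TPM (median 37.2 TPM), led by Reg3g, Apoa4 and the homeobox factor Cdx1 (434 ± 13 TPM). Keratinocyte genes (28 of 29, median 45.7 TPM) were led by Krt5 (613 ± 168 TPM) and the envelope protein Sprr1a (363 ± 49.9 TPM). The secretory list (29 of 29, median 7.83 TPM) had 1 gene far above the rest, the mucus protein Fcgbp at 1552 ± 105 TPM, which was 18th among protein-coding genes.

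Neuroendocrine genes (18 of 23, median 5.43 TPM) included the transcription factor Insm1 (220.1 ± 23.6 TPM), while Neurod1 and Pax6 of the same list were under 1 TPM. Tuft cell genes (22 of 22, median 13.2 TPM) included the actin-binding protein Avil at 54.0 ± 12.8 TPM and the taste G protein Gng13 at 41.3 ± 7.70 TPM, beside Spib, which microfold and tuft lists share. Ciliated cell genes (18 of 20, median 4.45 TPM) were led by Tubb4b, a widely used tubulin (222 ± 10.1 TPM), and the master regulator Foxj1 (55.8 ± 8.19 TPM). Muscle genes (20 of 24, median 4.07 TPM) were led by the myosin light chain Mylpf (31.4 ± 1.35 TPM) and desmin (Des, 21.2 ± 2.94 TPM), and the muscle factor Myog was at 18.2 ± 5.54 TPM. In bulk RNA, a few cells with much of a transcript and many cells with little of it cannot be told apart.

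Genes of other cells that a sort could carry along had list medians on both sides of the protein-coding median of 7.06 TPM. The thymocyte list had a median of 3.49 TPM, with Cd3e of the T cell receptor complex at 2.45 ± 0.91 TPM and Ptcra at 3.26 ± 0.72 TPM, but Tcf7 was at 86.6 ± 13.8 TPM. The pan-leukocyte gene Ptprc was at 2.27 ± 0.73 TPM. In the myeloid list (median 8.96 TPM) lysozyme Lyz2 was at 905 ± 122 TPM, with Lyz1 of the same family at 817 ± 69.7 TPM, whereas Itgax and Siglech were at 1.24 ± 0.31 and 0.745 ± 0.173 TPM. The B cell list had a median of 6.83 TPM, with all 10 measured genes at 1 TPM or more, and Ms4a1 was at 1.43 ± 0.29 TPM. Fibroblast and endothelial genes had a median of 3.72 TPM, with Col1a1 at 23.4 ± 2.72, Pdgfra at 0.419 ± 0.108 and Cdh5 at 2.06 ± 0.40 TPM. The erythroid list had a median of 18.6 TPM. Its Hba-a2 and Hba-a1 were at 77.1 ± 8.18 and 58.7 ± 7.33 TPM, with 93.6% and 77.2% of their words shared with other genes. None of the defining markers was at 0 in these lists. How much of each signal came from other cells was not tested.

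Cortical epithelium is recognised by the thymoproteasome subunit Psmb11, which was at 9.18, 9.16 and 5.57 TPM, about the protein-coding median. Prss16, the thymus-specific serine protease of the cortex, was at 27.3 ± 6.74 TPM. Other genes on the cortical list were higher, among them Tbata (609, 565 and 500 TPM), Ccl25 (144 ± 8.37 TPM) and Foxn1, which medullary cells also use. The list of immature and junctional medullary cells had all 15 genes at 1 TPM or more and a median of 51.7 TPM, led by Ifitm3 (1249 ± 219 TPM), Ccl21a and Krt5, with Pdpn at 19.1 ± 2.63 TPM.

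Genes of the p53 pathway were all measured in these Trp53-intact cells, with 30 of 30 at 1 TPM or more and a median of 33.8 TPM. Trp53 itself was at 66.7, 55.6 and 60.2 TPM. Among known p53 targets, the junction protein Perp was at 239 ± 27.8 TPM, the cell cycle inhibitor Cdkn1a at 148 ± 8.42, cyclin G1 (Ccng1) at 136 ± 5.92, the pro-apoptotic Pmaip1 at 131 ± 4.84 and the death receptor Fas at 116 ± 11.9 TPM. Cdkn1a varied little, at 156, 149 and 139 TPM in libraries 1, 2 and 3. The 25 BCL2 family and caspase genes, all at 1 TPM or more, had a median of 25.9 TPM. Among them, Bcl2a1a was at 234 ± 34.6 TPM, with 83.5% of its words shared with other transcripts, Mcl1 at 208 ± 11.3 and Bcl2l1 at 112 ± 6.67 TPM. Cell cycle genes (30 of 30, median 18.3 TPM) included the proliferation marker Mki67 at 47.9, 45.5 and 47.4 TPM, with little spread. Interferon-stimulated genes had 24 of 24 at 1 TPM or more and a median of 55.6 TPM, led by Cxcl10, Usp18 (197 ± 9.34 TPM) and Cxcl9 (192 ± 1.47 TPM).

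A ranking over all classes of genes looked different from the protein-coding one. Protein-coding genes took 87.3 ± 0.14% of the counts and 58.1 ± 0.18% of the TPM, because TPM divides by length and many short genes were counted. Pseudogenes took 8.86 ± 0.26% of the counts but 23.9 ± 0.34% of the TPM, and small RNA genes 0.652 ± 0.055% of the counts but 12.7 ± 0.16% of the TPM. Among the 100 highest genes by TPM, 38 were protein-coding, 41 were pseudogenes and 17 were small RNA genes. At the head stood Mir5107, listed at 56911 ± 1505 TPM, a short microRNA gene that lies within Cd74 and overlaps its exons over 13.6% of its length. Then came Cd74, B2m and Gm26377 (10126 ± 192 TPM), all of whose length lies within an exon of the elongation factor gene Eef1a1. Of 71 small RNA genes at 100 TPM or more, 60 overlapped exons of another gene over at least 50% of their length. The counting let 1 read count for every gene it overlaps and used no strand, per the file headers, so these short genes cannot be told apart from their hosts.

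**Figure D3:**
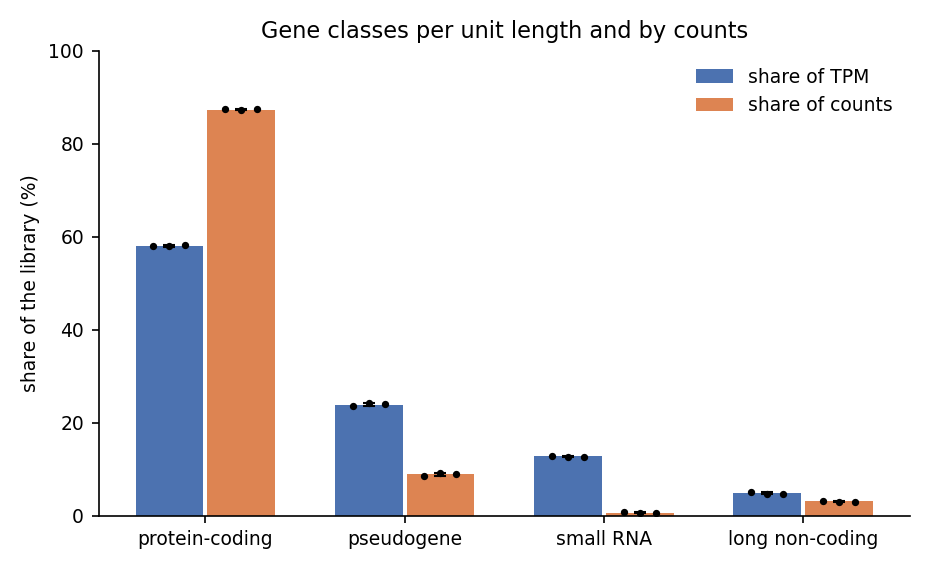
Share of each WT library (bars, mean of 3; whiskers, SD; dots, libraries) taken by 4 gene classes, by TPM (blue) and by counts (orange). Protein-coding genes held 58.1% of TPM and 87.3% of counts, and small RNA genes 12.7% of TPM and 0.652% of counts.

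Pseudogenes near the top were nearly all copies of abundant genes. Of 417 pseudogenes at 100 TPM or more, 396 (94.96%) shared at least 50% of their 25-base words with another gene's transcripts, against 11.9% of the 909 protein-coding genes at that level. Examples are Gm14303, listed at 5715 ± 390 TPM, all of whose words occur in the ribosomal protein gene Rps29, and Gm9794 at 3152 ± 68.9 TPM, of whose words 93.7% occur in Rpl23. All 37 mitochondrial genes were listed at 0 in the 3 libraries, including the 13 that encode proteins of the respiratory chain. At the same time, 7 pseudogenes in a stretch of chromosome 1 (chr1:24611535-24616197) that repeats the mitochondrial genome were listed at 30670 TPM in sum. Gm29216, which shares 97.2% of its words with mt-Co1, was at 8588, 8272 and 8127 TPM and had rank 5 of all genes, and Gm10925, all of whose words occur in mt-Atp6, was at 6732 ± 341 TPM. Those levels are therefore of sequences that the chromosome 1 copies and mitochondrial transcripts have in common. Shared words also touch familiar reference genes: Gapdh was listed at 42.8 ± 2.78 TPM with 29.0% of its words shared, and Pgk1 at 57.2 ± 4.21 TPM with 55.2% shared.

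Long non-coding RNA genes took 4.87 ± 0.27% of the TPM. The highest as listed, AY036118, lies wholly within Gm42418 and was at 3250, 1425 and 1390 TPM, high in library 1. Gm42418 was at 1892, 860.1 and 888 TPM with the same pattern. Of its exon length, 99.5% overlaps a further gene, CT010467.1. The reads of these overlapping genes cannot be told apart, so neither level can be taken as that of a long non-coding RNA. Among long non-coding genes with little or no overlap, AW112010 was at 640.5 ± 123.2 TPM and Malat1 at 559 ± 91.0 TPM. Ifi30, an enzyme gene, is in this class only because the annotation used for gene types lists it there. The 100 highest genes of any class held 31.6 ± 0.44% of the TPM, and the 100 highest protein-coding genes held 27.4 ± 0.82% of the protein-coding TPM.

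The 3 libraries were alike over most genes. Over 20717 protein-coding genes, Pearson's r of log2(TPM + 1) was 0.991 between libraries 1 and 2, 0.992 between 1 and 3 and 0.993 between 2 and 3, as a description across genes of libraries that share a protocol. The median CV fell with level, from 34.7% at 0.1 to 1 TPM through 13.5% at 1 to 10 TPM and 8.20% at 10 to 100 TPM to 4.78% at 1000 TPM or more. The CV expected from counting error, with the mates of a pair taken as 1 observation, was 29.3%, 7.92%, 3.16% and 0.55% in those bins. A median CV of 3 libraries tends to lie below the expected one, so these values overstate the part of counting error. Above 1 TPM they still lay well under the median CV, so most spread there was between libraries. Of 8728 protein-coding genes at 10 TPM or more, 80 (0.917%) had a highest library at least 2 times the lowest. The steadiest gene was H2-Ob, the partner of H2-Oa in inhibiting peptide loading, at 58.5, 58.4 and 58.4 TPM, and the respiratory chain subunit Sdhd was next at 188, 189 and 189 TPM. Such small CVs lie under counting error.

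**Figure D4:**
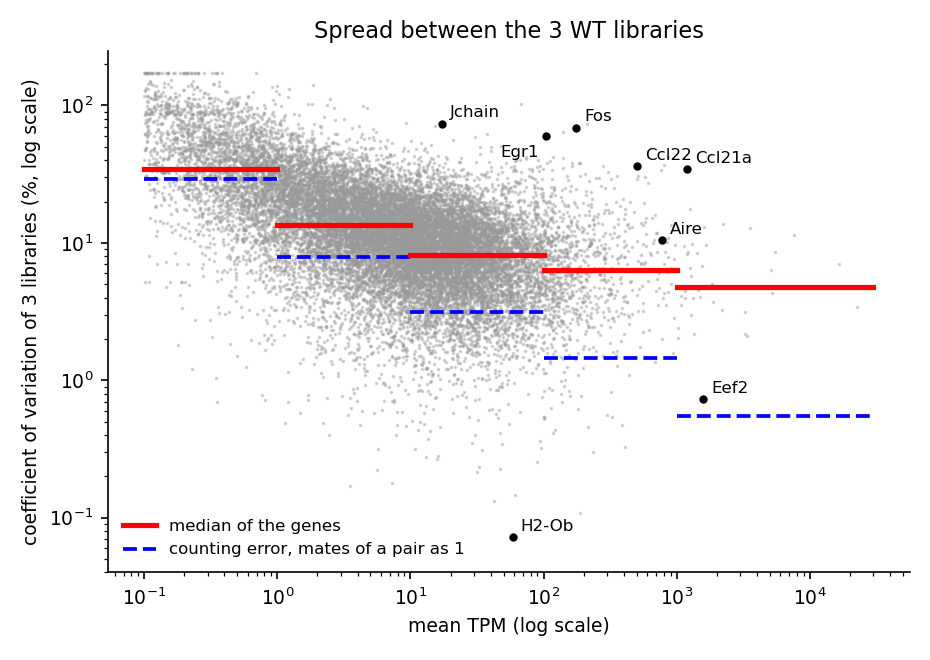
Coefficient of variation over the 3 WT libraries against mean TPM for protein-coding genes at 0.1 TPM or more (grey points, log axes, CVs under 0.05% drawn at 0.05%). Red lines give the median of each bin, and dashed blue lines the CV expected from counting error. Median CV falls from 34.7% to 4.78% while counting error falls to 0.55%, and Fos, Egr1, Jchain, Ccl22 and Ccl21a lie above the bulk of genes at their level.

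Genes with the widest spread included members of known groups. Atp5k, a subunit of the ATP synthase, was at 28.1, 26.7 and 147 TPM, high in library 3, and Rps21, a ribosomal protein, at 388, 138 and 105 TPM, high in library 1. Fosb (64.1, 30.2 and 6.99 TPM), Fos (297, 181 and 52.7 TPM) and Egr1 (169, 99.03 and 44.8 TPM) are immediate early genes, switched on within minutes of a stimulus, and all 3 were highest in library 1 and lowest in library 3. In the list of immediate early and heat shock genes, 17 of 20 were highest in library 1, against 48.0% of protein-coding genes at 1 TPM or more, and 12 of 20 were highest in library 1 and lowest in library 3, against 19.1%. Its heat shock members Hspa8 (603, 574 and 638 TPM), Hspa1b (214 ± 12.7 TPM) and Hsp90aa1 (211 ± 11.1 TPM) had small SDs beside their means and were highest in library 3. How these genes bear on the other levels of library 1 was not tested.

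Tissue antigens as a group had their lowest levels in library 1. Of the 187 at 1 TPM or more, 119 (63.6%) had their lowest level in library 1, against 25.3% of all protein-coding genes at that level, and their median level relative to the mean of the 3 libraries was 0.866, 1.03 and 1.08 in libraries 1, 2 and 3. Over all protein-coding genes the same medians were 1.03, 0.971 and 0.993. Aire and Fezf2 had their highest level in library 1, as did 32 of the 42 genes in the AIRE and partners list, these 2 among them, against 48.0% of all protein-coding genes at 1 TPM or more. The AIRE and partners list was not alone in this. Library 1 was also highest for 20 of 23 TEC transcription factors, 12 of 15 immature and junctional genes and 21 of 30 epithelial structure genes. Gm42418 and AY036118, whose values are given above, and Lars2 (67.5, 35.98 and 40.3 TPM) were also highest in library 1, and their part in these shifts was not tested. Tuft cell genes showed another pattern: 19 of 22 were lowest in library 3, against 30.5% of all, with the taste G protein Gnat3 at 27.9, 29.9 and 13.2 TPM.

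Library 2 had the highest levels of most thymocyte genes and the lowest of most immature medullary genes. In the thymocyte list 17 of 19 genes at 1 TPM or more were highest there, against 23.8% of all, as with Dntt at 9.52, 17.1 and 6.66 TPM. The antibody joining chain Jchain was at 8.97, 31.8 and 10.8 TPM, and from the counts the immunoglobulin light chain constant gene Igkc was at 71.4, 312 and 97.8 TPM. Summed over the thymocyte list the level was 172, 225 and 145 TPM, and over the myeloid list 979.8, 1281 and 1205 TPM. Lyz2 made up most of the latter (769, 1007 and 938 TPM), and the other 19 genes summed to 211, 274 and 267 TPM. The myeloid sums were thus lowest in library 1 and close in libraries 2 and 3. At 1 TPM or more, 10 of 18 myeloid and 5 of 10 B cell genes were highest in library 2. Ccl22 and Ccl17 (66.1, 147 and 107 TPM), Ccr7 (70.3, 134 and 79.1 TPM) and Il12b (9.53, 20.4 and 10.1 TPM), genes that activated dendritic cells also use, were highest in library 2 too, and the part of such cells in these levels was not tested. In the immature and junctional list, 12 of 15 were lowest in library 2, against 44.2% of all, among them Krt5 at 719, 420 and 700.5 TPM. This was not particular to immature genes. Also lowest there were 21 of 30 epithelial structure genes and 19 of 30 p53 pathway genes. The same held for 17 of 25 BCL2 family and caspase genes and 15 of 23 TEC transcription factors. The plot of relative levels shows these shifts for all lists.

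**Figure D5:**
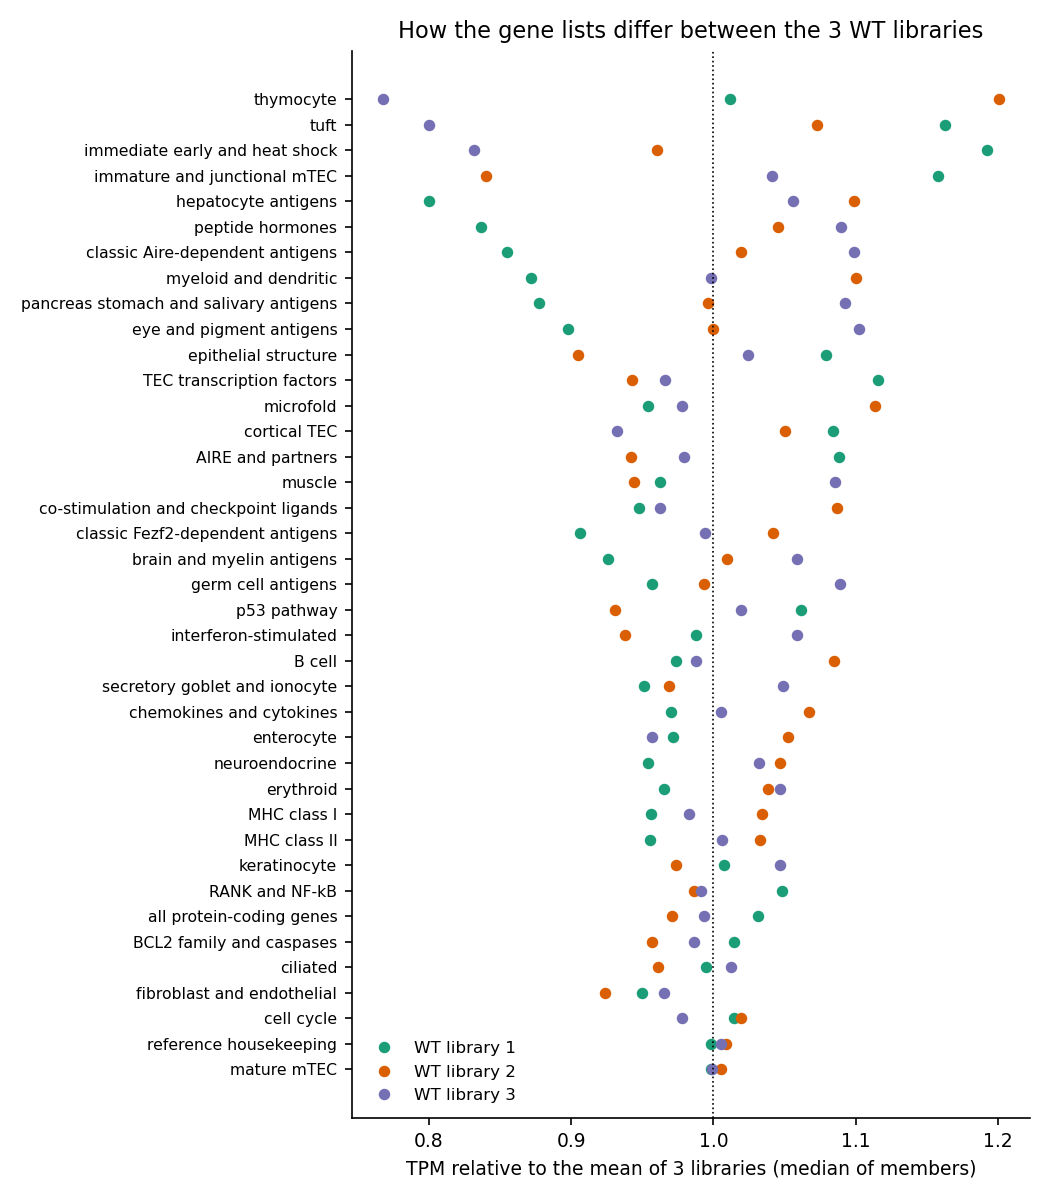
For each gene list and for all protein-coding genes, the median over members at 1 TPM or more of the level in a WT library relative to the gene's mean of 3 libraries, 1 coloured point per library, with lists ordered by the distance between libraries. The median of mature mTEC genes lies within 0.998 and 1.01 in all 3 libraries, though members such as Ccl22 and Ccl21a moved in opposite directions. The median CV of that list was 10.5%, against 10.2% for all protein-coding genes at 1 TPM or more. Medians of thymocyte genes run from 0.768 in library 3 to 1.20 in library 2, and of hepatocyte antigens from 0.800 in library 1 to 1.099 in library 2.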

How the data were processed

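Total counts per WT library were 45457892, 47469184 and 48564222. The submitters' processing notes name TopHat2 2.1.1, SAMtools 1.9, Subread 2.0.1 and the build mm10. Per the file headers, featureCounts 2.0.0 assigned counts to exons of Ensembl 99 genes without strand, with each mate counted by itself and a read counted for every gene it overlaps. The deposited count files list 55385 genes. The authors' deposited table of counts and TPM lists 51810 of them, and its WT counts equal those of the files; the other 3575 genes, olfactory receptors among them, have TPM recomputed here from the counts. 1 column of per-sample values that names no sample was not used. The kit keeps strand and the counting did not use it, so antisense and overlapping genes share reads. Aligner settings and the treatment of multiply mapped reads are not given in the sources used here.

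Gene types come from GENCODE M21. CV is SD over mean of TPM. Shared words are 25-base stretches of a gene's transcripts, on either strand, that occur in another gene's transcripts. Promoters were those nearest the annotated gene start, found for 15802 of 20696 protein-coding symbols. Calculations used Python with pandas and numpy, and edgeR for TMM scaling. A count of 3 corresponded to 0.0618 to 0.0660 CPM, a floor that covers counting error only. Between libraries, the chi-square of counts per gene was 13.4 to 20.6. Sampling noise alone would give 1 for independent mates, and about 2 with the mates of a pair taken as 1 observation. No 2 libraries thus agreed within sampling noise.

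Members and gene lists (38 lists, 819 genes measured, 8 symbols without a row) were chosen with earlier results of these data known. Named genes are the up to 6 highest of a list or family, list members of highest or lowest CV, those under 3 counts, the 30 highest genes, the 10 most and least variable protein-coding genes at 10 TPM or more, and the 10 highest non-coding genes and pseudogenes. Other names were chosen after their values were seen, among them Ins1, Ins2, Alb, Mbp, Mog, Myog, Gapdh, Pgk1, Trp53, Mki67, Cd80, Ciita, Hspa8 in its libraries, Ccr7, Il12b, Igkc, Lyz1, H2-Eb2, sex-linked genes and the low markers of other cell types. Values of some list members are not reported here.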

Additional observations from a re-analysis of the deposited data

How the results depend on the processing

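No paired analysis was possible because the libraries described form 1 group and no result comes from a test. Leaving out each library in turn, detected genes ranged from 23689 to 23850 (23780 with all) and the share of the 100 highest from 31.4% to 31.8%. The median CV over all genes at 1 TPM or more then ranged from 8.35% without library 1 to 10.6% (11.6% with all). Part of that drop is by construction, since a median CV of 2 libraries tends to be smaller than one of 3. Ranks among all genes then ranged from 132 to 150 for Aire, 908 to 1003 for Cd80, 11 to 13 for H2-Aa, 350 to 413 for Fezf2 and 221 to 239 for Epcam; list members at 1 TPM or more from 757 to 760 (759 of 819 with all); and family members with 3 counts in every library from 2132 to 2173 (2059 of 3309 with all), since fewer libraries had to pass.

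A threshold of 10 TPM left 11113 detected genes; other thresholds, protein-coding genes alone and recomputed TPM gave 16787 to 35617. With TPM recomputed over all 55385 genes, the share of the 100 highest was 30.01%, and Aire, Cd80, Fezf2 and Epcam ranked 172, 1088, 444 and 280, against 141, 946, 372 and 229 in the authors' TPM; genes added above them lower the ranks by construction. Counted without length, that share was 16.9%, and Aire, Cd80, H2-Aa, Fezf2 and Epcam ranked 29, 548, 2, 196 and 161. Among protein-coding genes alone the share was 27.4% and the ranks were 59, 530, 5, 174 and 102. The median CV was 8.17% at 10 TPM or more and 14.0% with no filter other than 3 counts in every library. Of 152 list medians recomputed over 38 lists, 131 moved by less than the SD between libraries, and all lay within 0.857 and 1.20 times the value with all libraries. Depth limits genes under 1 TPM: at 0.1 to 1 TPM the CV expected from counting error was 29.3%, beside a median CV of 34.7%.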

Other observations

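Outside the TPM table, the constant genes of antibody chains had counts in all 3 libraries, highest in library 2: Ighm at 1496, 4919 and 2308 counts, Igha at 87, 928 and 79 and Igkc at 822, 3914 and 1241. The T cell receptor genes Trbc1 (443, 605 and 232 counts) and Trbc2 (642, 860 and 452 counts) were also highest there and lowest in library 3.

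Several families of adhesion and signalling genes had smaller shares at 1 TPM or more than the 81.0% of all protein-coding genes in the TPM table. Of 97 cadherins and protocadherins, 69 (71.1%) were at 1 TPM or more, with E-cadherin (Cdh1) highest at 290.1 ± 20.6 TPM and Cdhr1, a cadherin of photoreceptors, at 134 ± 20.7 TPM. Of 81 potassium channels 55 (67.9%) were, led by Kcnj15 at 149 ± 11.9 TPM, and of 35 GABA and glutamate receptor subunits 18 (51.4%) were, led by Grin2c at 73.5 ± 6.68 TPM. The serotonin transporter Slc6a4 was at 143, 141 and 138 TPM, close over the 3 libraries. Among 39 Hox genes, which pattern the body axis, 20 were at 1 TPM or more, and the highest was the posterior gene Hoxc11 at 33.2 ± 2.06 TPM. Claudins, the proteins of tight junctions, were led by Cldn4 (403 ± 12.3 TPM), Cldn7 (211 ± 9.10) and Cldn13 (184 ± 23.5). Of this family 19 of 23 (82.6%) were at 1 TPM or more, close to the share of all protein-coding genes. The protease inhibitor Wfdc18 was at 557 ± 17.8 TPM, and 9 of 18 genes of its family were at 1 TPM or more.

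Solute carriers, which move small molecules across membranes, had 301 of 345 (87.2%) at 1 TPM or more and a median of 6.14 TPM. That share was near the 81.0% of all protein-coding genes. Zinc finger genes named Zfp, with 336 of 395 (85.1%) at 1 TPM or more, were also near it. Histone cluster genes, many of whose transcripts lack a poly(A) tail, had 49 of 68 (72.1%) at 1 TPM or more. They were led by the linker histone H1f0 (388 ± 13 TPM), whose transcript is polyadenylated. Collagens reached 1 TPM in 37 of 45 genes (82.2%), close to the share of all protein-coding genes. They were led by the basement membrane chains Col4a1 (50.8 ± 7.96 TPM) and Col4a2 (38.7 ± 6.30 TPM).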
